A study of Mus musculus with 12 samples.

Results

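Estrogens and androgens reach a tissue from the blood, and enzymes inside its cells decide how much active hormone meets its receptor. Sult1e1, the estrogen sulfotransferase, attaches sulfate to estradiol and estrone, and the sulfated forms no longer bind the estrogen receptor, while the sulfatase Sts can release them again. Enzymes of the 17-beta-hydroxysteroid dehydrogenase family (Hsd17b) interconvert strong and weak estrogens and androgens, Srd5a1 turns testosterone into dihydrotestosterone, and Esr1 encodes estrogen receptor alpha. The mouse submandibular gland is a classical androgen-responsive organ, whose granular ducts are larger in males.

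The genes described here are Sult1e1, Srd5a1, Hsd17b4, Hsd17b10, Hsd17b11, Hsd17b12, Esr1 and Sts, 8 in number, chosen by name. The probes were those of the deposited intensity table whose only gene symbol in the array annotation is 1 of these names. That rule found 12 probes of 6 genes among the 45281 probes of the array. Srd5a1 and Sts were not analysed here, since the rule found 0 probes for either. Sult1e1 had the lowest difference between the ages of the 9379 genes tested, followed by 1700016C15Rik at -1.81 on the log2 scale, and all the names were chosen with the results of that comparison known. The members' differences between the ages are therefore given as a description, with no test.

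The study measured total RNA of the submandibular gland of C57BL6J mice on 12 Illumina bead arrays, 6 at 8 weeks and 6 at 50 weeks of age. The labels name no treatment or genetic change, and neither sex nor hour of collection. Titles carry a mouse number from 1 to 6 in each age without saying whether animals were pooled, so the p-values measure the spread between these arrays, which may be technical in part. With 2 ages, effects of maturing and of growing old cannot be told apart.

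Across the arrays the mean intensity of all probes was 207 to 324, and 15318 to 18110 probes were detected. A probe counts as detected on an array when its detection p-value was under 0.05. Of 9379 genes tested, 596 rose and 575 fell at 50 weeks. All 8 listed acinar markers with a probe, among them the water channel Aqp5, were measured, and so were 12 kallikreins and growth factors of granular ducts. Y-linked Eif2s3y was detected on 12 of 12 arrays with 1 probe and on 1 array of each age with another. The X-inactivation transcript Xist was detected on 0 of 12 with 3 of its probes and on 1 with the other. Array 6 of the 50-week group correlated with its own age at a mean r of 0.949, against at least 0.975 for each other array. Array 2 of the 8-week group held the highest levels of the adipocyte gene Adipoq (10.56 on the log2 scale) and the muscle gene Acta1 (9.05), where the other young arrays had at most 8.70 and 6.26.

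The promoters of the 3 members called lower at 50 weeks are shown first, because they are the genes whose values differ most between the ages. Each stretch is the 250 bases before the transcription start in RefSeq, build GRCm38.p6, read 5′ to 3′ along the gene. Capitals mark matches on either strand to AGGTCA, the half-site bound by many nuclear receptors, and to CCAAT, the box bound by NF-Y. The stretches lie at chr5:87591612-87591861 on the minus strand (Sult1e1), chrX:152001646-152001895 on the plus strand (Hsd17b10) and chr5:104021797-104022046 on the minus strand (Hsd17b11).
Sult1e1: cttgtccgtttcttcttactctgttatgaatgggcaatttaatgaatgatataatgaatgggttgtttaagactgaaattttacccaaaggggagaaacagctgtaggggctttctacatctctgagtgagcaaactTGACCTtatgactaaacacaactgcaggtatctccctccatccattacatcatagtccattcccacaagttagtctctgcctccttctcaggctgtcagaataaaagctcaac
Hsd17b10: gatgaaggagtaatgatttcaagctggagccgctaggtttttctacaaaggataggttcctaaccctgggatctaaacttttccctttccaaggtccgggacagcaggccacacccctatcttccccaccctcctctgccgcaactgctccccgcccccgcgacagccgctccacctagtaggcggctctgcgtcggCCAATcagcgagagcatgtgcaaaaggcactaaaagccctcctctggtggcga
Hsd17b11: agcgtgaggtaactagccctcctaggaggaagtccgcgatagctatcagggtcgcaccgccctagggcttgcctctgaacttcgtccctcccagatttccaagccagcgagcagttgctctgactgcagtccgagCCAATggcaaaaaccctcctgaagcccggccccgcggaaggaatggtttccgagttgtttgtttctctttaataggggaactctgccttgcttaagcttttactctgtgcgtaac

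The Sult1e1 stretch held 1 AGGTCA match, read on the opposite strand as TGACCT and beginning 113 bases before the start. The same letters occur on either strand in 14% of 32851 mouse promoter stretches of that length, so the match is common. Hsd17b10 and Hsd17b11 each held 1 CCAAT match, 53 and 115 bases before the start, and 33.8% of stretches hold one. Members not called lower held it too, with 2 matches in Hsd17b12, 1 in Srd5a1 and 1 in a stretch of Esr1. The estrogen response element, a palindrome of half-sites searched with any bases in its spacer, is present in 0.0639% of stretches. It was matched in 0 of the 7 stretches searched, which came from 6 members. No stretch of Hsd17b4 or Sts was searched. The palindromic androgen and glucocorticoid response element (0.387% of stretches) and its half-site AGAACA (16.1%) were also matched in 0 of the 7 stretches. These are matches of letters within a short window and show nothing about binding.

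Sult1e1 was measured well above background in the young gland and close to background in the old one. On the linear scale of the deposited table, before any scaling between arrays, the probe ILMN_1216300 read 451, 171, 394, 219, 189 and 316 on 8-week arrays 1 to 6. On 50-week arrays 1 to 6 it read 111, 115, 114, 110, 121 and 113. The lowest young value lay above the highest old value, and the old values kept within a narrow band while the young ones spread widely.

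**Figure D1:**
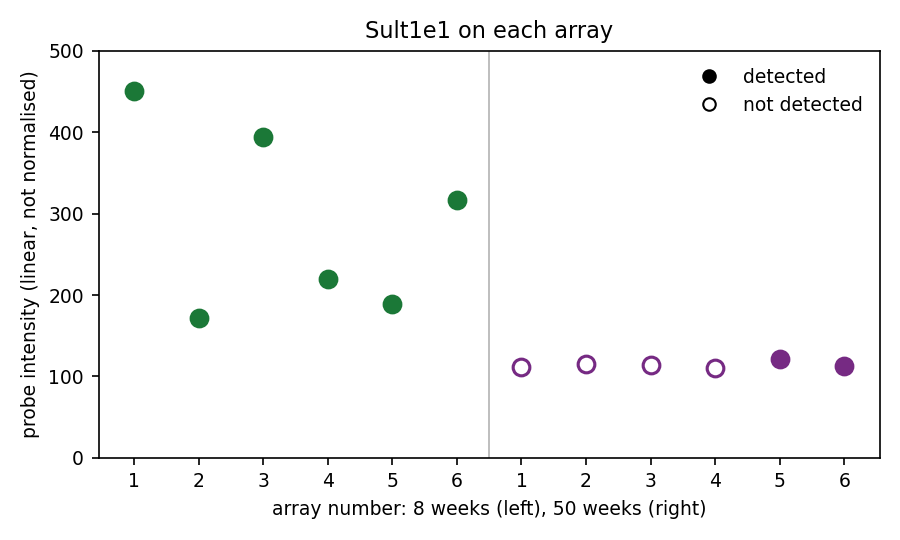
Probe intensity of Sult1e1 on a linear scale on each of the 12 arrays, 8 weeks to the left of the line and 50 weeks to the right; filled points were detected and open points were not. The young arrays run from 171 to 451 and the old ones from 110 to 121, with 2 of 6 old arrays detected.

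After background correction and quantile normalisation, the log2 intensity of Sult1e1 was 8.02, 6.40, 8.80, 7.09, 7.28 and 7.83 on the young arrays. The old arrays gave 4.63, 4.85, 4.49, 4.62, 5.05 and 5.28. Every young array detected it (6 of 6), and among the old arrays only arrays 5 and 6 did, with detection p-values of 0.0331 and 0.0299. The means were 7.57 ± 0.83 at 8 weeks and 4.82 ± 0.30 at 50 weeks (SD, n = 6), a log2 difference of -2.75 ± 0.31 (standard error of the fit). Because most old arrays did not detect the probe, the fold is a bound. With each old value raised to at least the lowest detected signal of its array, Sult1e1 was at least 6.04-fold lower at 50 weeks. The ages did not overlap, as was the case, with old below young, for 3.11% of all genes tested, and in either direction for 6.45%. Without background correction the log2 difference was -1.21, and on the authors' scaled values it was -1.23. Both are smaller than the bound, 2.59 on the log2 scale, which holds for background-corrected values only.

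Sult1e1 also differed between young arrays far more than most genes did. Its SD of 0.83 at 8 weeks was larger than that of 99.4% of the genes tested, whose median SD was 0.17. The highest young array (array 3) and the lowest (array 2) stood 1.23 above and 1.17 below the mean of their age. Array 3 had the lowest Adipoq of the young arrays, 5.18, and array 2 the highest, 10.56. The same 2 arrays were lowest and highest in Amy1, listed for the parotid and sublingual glands, at 8.14 and 14.10. Array 1, next to the highest young array in Sult1e1 (8.02), was also next to the highest in Adipoq (8.70) and Amy1 (13.95). With the mean of the 2 measured adipocyte genes, Adipoq and Cidec, as a covariate, the difference in Sult1e1 between the ages was -2.95. With Amy1 as a covariate, added after seeing the data, the difference was -2.86. Without both 8-week array 2 and 50-week array 6 it was -3.08. Fewer Sult1e1-expressing cells and less Sult1e1 RNA per cell cannot be told apart in whole-gland RNA.

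**Figure D2:**
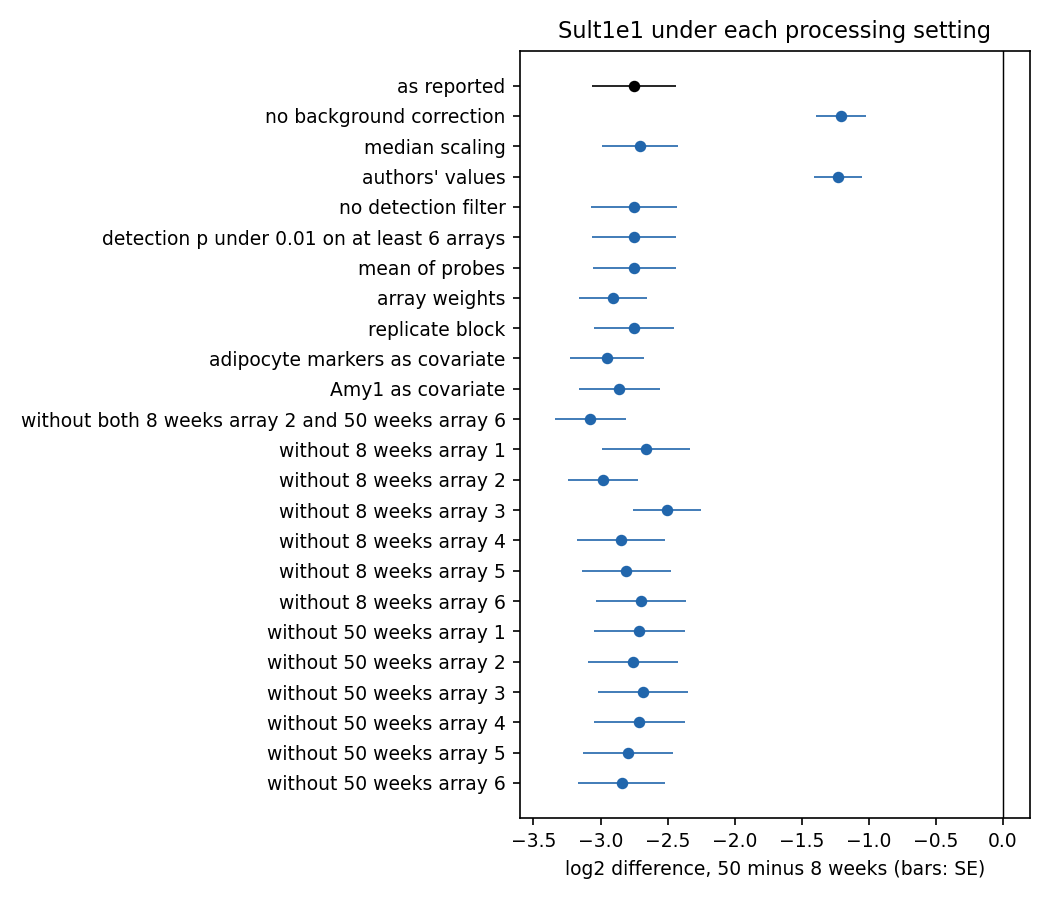
Log2 difference of Sult1e1 at 50 weeks minus 8 weeks, with its standard error, as reported (black) and under each other processing setting (blue). The values lie between -3.08 and -2.51, except for -1.21 without background correction and -1.23 on the authors' values.

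Of the 17-beta-hydroxysteroid dehydrogenases, Hsd17b10 and Hsd17b11 were lower in the old gland after normalisation, while Hsd17b4 and Hsd17b12 overlapped between the ages. Hsd17b10, a mitochondrial enzyme that breaks down isoleucine, oxidises steroids and is a part of mitochondrial RNase P, was bright and nearly constant in the young gland. Its log2 intensity there was 10.83, 10.82, 10.84, 10.72, 10.86 and 10.74 on arrays 1 to 6. The old arrays gave 10.39, 10.41, 10.44, 10.38, 10.54 and 10.80, so that 5 of 6 lay below every young array and array 6 lay among them. The means were 10.80 ± 0.06 and 10.49 ± 0.16 (SD, n = 6), a log2 difference of -0.31 ± 0.08 or a 1.24-fold lower level. Median scaling, which gives every array 1 common median and moved the median difference of all genes from -0.02 to 0.10, left a difference of -0.19.

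Hsd17b11, which sits on lipid droplets and whose human form oxidises androstanediol, had 3 probes. The brighter one, ILMN_2705361, was above the detection limit on all 6 arrays at 8 weeks and on 5 of 6 at 50 weeks. It read 6.05, 5.68, 6.16, 5.87, 6.10 and 6.19 on young arrays 1 to 6. The old arrays gave 5.45, 5.63, 5.30, 5.69, 5.64 and 4.64, so that old array 4 was barely above young array 2 and the other old arrays were below all young ones. The means of 6.01 ± 0.19 and 5.39 ± 0.39 (SD, n = 6) differed by -0.62 ± 0.16 on the log2 scale. On the linear scale, before normalisation, the same probe read 126 to 178 at 8 weeks and 104 to 143 at 50 weeks, close to background. The medians there were 143 and 140, and the 104 was old array 6, so the unscaled values overlapped between the ages. After quantile normalisation without background correction the log2 difference was -0.20.

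The dimmer probe of Hsd17b11, ILMN_2642985, ran from 4.84 to 5.67 on the young arrays and from 4.46 to 4.93 on the old ones (log2 difference -0.42 ± 0.14). At 8 weeks 4 of 6 arrays detected it and at 50 weeks 2 of 6, and with old values raised to the lowest detected signal it was at least 1.17-fold lower at 50 weeks. The remaining probe, ILMN_2685234, was detected on 0 of 12 arrays. Both probes that carried signal were lower in the old gland after normalisation. Without background correction the dimmer one differed by -0.12, smaller than its bound of 0.22 on the log2 scale.

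Hsd17b4, the peroxisomal enzyme that oxidises estradiol to estrone and also takes part in fatty acid breakdown, overlapped between the ages. Its log2 intensity ran from 10.78 through a median of 10.87 to 10.98 at 8 weeks and from 10.83 through 10.87 to 11.14 at 50 weeks. The log2 difference of 0.05 ± 0.07 was smaller than the spread between arrays of 1 age. The highest of the 12 values was that of old array 6, and without that array the difference was 0.002.

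Hsd17b12, which elongates fatty acids in the endoplasmic reticulum and in mice also reduces estrone to estradiol, overlapped too. On its detected probe the log2 intensity was 7.32, 7.99, 7.28, 7.40, 7.46 and 7.41 on young arrays 1 to 6 and 7.30, 7.52, 7.67, 7.63, 7.47 and 7.10 on the old ones. The means of 7.48 ± 0.26 and 7.45 ± 0.22 (SD, n = 6) differed by -0.03 ± 0.13, and the sign turned under several settings. A second probe, made to another transcript, was detected on 1 of 6 arrays of each age.

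**Figure D3:**
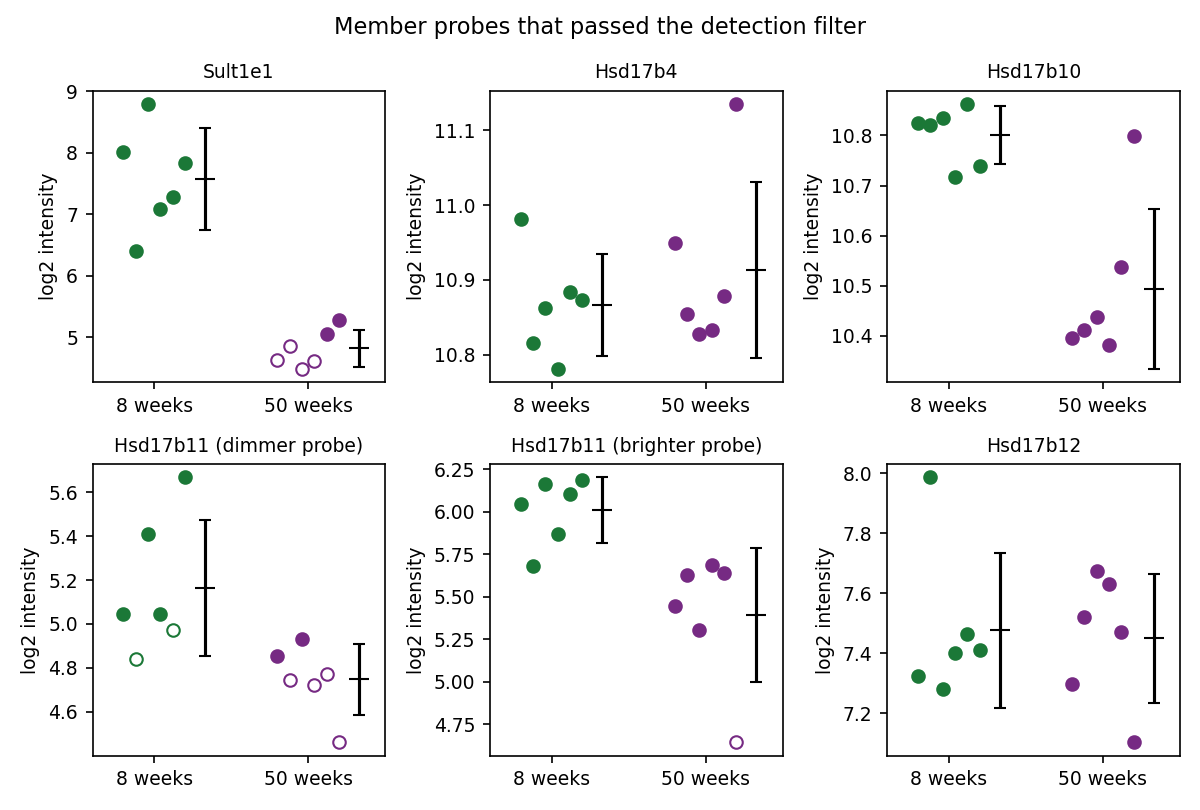
Log2 intensity of the 6 member probes that passed the detection filter, 1 point per array in the order of the array numbers, filled where detected, with the mean and SD of each age in black; each panel has its own scale. Sult1e1 separates the ages, Hsd17b10 and the brighter Hsd17b11 probe each have 1 old array among the young ones, and Hsd17b4 and Hsd17b12 overlap.

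Estrogen receptor alpha was not measurable in either age. Of the 4 Esr1 probes, 3 were detected on 0 of 12 arrays, and ILMN_2571180 on 1 young array and 1 old array. Intensities on the linear scale ran from 84.1 to 123 at 8 weeks and from 89.8 to 127 at 50 weeks over the 4 probes. The probes of Esr2, the beta receptor, and of Pgr, the progesterone receptor and a known estrogen target, were detected on 0 of 12 arrays. A probe at background bounds the level on this array and does not show that the transcript is missing.

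Of the 6 members with probes, 5 had a probe that passed the detection filter and entered the fit across all genes. In that fit 3 of 5 were called lower and 0 higher, where 6.13% of all genes were called lower and 6.35% higher. Since these genes were chosen with that comparison in view, nothing is read from the count or from which members keep a call. The count was 1 of 5 under median scaling, with the replicate number as a block, without 8-week array 3 and without 50-week array 3. Sult1e1 was the member called in each of those settings. The count was 2 of 5 without 8-week array 1, 5 or 6 and without 50-week array 1, 2 or 4. Hsd17b11 lost its call without 8-week array 6, and Hsd17b10 lost its call in the others of these settings. The median log2 difference of the 5 was -0.31, beside -0.02 over all genes tested.

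Other genes of steroid handling were taken from 7 lists written from general knowledge, with 99 genes in all. A probe with 1 symbol was found for 85 of them, and 43 of these were detected on 0 of 12 arrays. Of the 32 that passed the filter, 4 fell and 0 rose (limma, adjusted p under 0.05 over all genes). That share, 12.5%, was the share of all genes tested that changed in either direction, also 12.5%, while 6.13% of all genes fell. The count was 0 under median scaling. It was 9 (7 lower, 2 higher) without both 8-week array 2 and 50-week array 6, and 9 without 50-week array 6 alone.

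Among cytosolic sulfotransferases, the enzymes that pass sulfate to hormones and drugs, 13 of 15 listed had a probe and 2 passed the filter. Sult1a1, a phenol sulfotransferase that also accepts estrogens, fell. It ran from 7.44 through a median of 8.04 to 8.54 on the young arrays and from 7.21 through 7.33 to 7.49 on the old ones, with 5 of 6 old arrays below every young array. The log2 change was -0.65 ± 0.16 (limma, adjusted p = 0.0175). It was -0.42 on the authors' values and -0.53, with an adjusted p of 0.224, under median scaling. Sult5a1 differed by 0.32 ± 0.11 and did not pass (limma, adjusted p = 0.0706). The probes of 7 further sulfotransferases, among them Sult1b1, Sult1d1 and Sult2a1, were detected on 0 of 12 arrays.

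The genes that supply the sulfate donor were measured and did not pass the test. Sulfotransferases draw on the activated sulfate made by Papss1 and Papss2, and Slc35b2 carries it into the Golgi. Papss1 stood at 11.50 ± 0.16 and 11.53 ± 0.15 (SD, n = 6), a log2 difference of 0.03 ± 0.09. Papss2 differed by 0.18 ± 0.22. Slc35b2 differed by -0.21 ± 0.07, with 6 of 6 old arrays below every young array (limma, adjusted p = 0.0533). Of the 6 genes of this list tested, 0 passed, and a missed threshold does not show equal levels.

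Of the other hydroxysteroid dehydrogenases, 3 of 14 with a probe passed the filter and 0 passed the test. Hsd17b7, which makes estradiol and also works in cholesterol synthesis, differed by -0.37 ± 0.19, Akr1c12 by -0.28 ± 0.17 and Hsd17b14 by -0.23 ± 0.10 (limma, adjusted p of 0.221, 0.319 and 0.166). A further 10 genes, among them Hsd17b2, which inactivates estradiol, and Hsd17b3, which makes testosterone in the testis, were detected on 0 of 12 arrays. Hsd17b1, which makes estradiol in the ovary, was detected on at most 4 arrays. In the list of estrogen oxidation and glucuronidation, 12 of 13 genes with a probe were detected on 0 of 12 arrays. The exception, Cyp1b1, which hydroxylates estradiol, differed by -0.16 ± 0.13 (limma, adjusted p = 0.483).

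In the list of steroid synthesis and reduction, 1 of 5 tested genes fell. Cyb5a, the electron carrier cytochrome b5, which aids the androgen-forming step of Cyp17a1, ran from 10.59 through a median of 10.64 to 10.97 at 8 weeks and from 10.29 through 10.38 to 10.50 at 50 weeks. The ages did not overlap, and the log2 change was -0.31 ± 0.08 (limma, adjusted p = 0.0235). Its call ended under median scaling (adjusted p = 0.564), on the authors' values (0.0631), with the replicate block (0.0642) and without 8-week array 5 or 50-week array 1 or 5 (0.0501 to 0.0538). Srd5a3, a relative of Srd5a1 that works mainly in protein glycosylation, differed by -0.06 ± 0.09. Hsd3b2, of the family that forms active steroid hormones, differed by -0.47 ± 0.23 (limma, adjusted p = 0.199), and the probe of Cyp17a1 was detected on 0 of 12 arrays.

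Of 10 sex steroid receptors and coregulators tested, 1 fell. Esrra, an orphan receptor related to the estrogen receptor that binds no estrogen and drives mitochondrial genes, ran from 9.33 through a median of 9.36 to 9.43 at 8 weeks. At 50 weeks it ran from 8.79 through 8.91 to 9.24, below every young array on 6 of 6 arrays (log2 change -0.41 ± 0.08, limma, adjusted p = 0.00583). Its call ended under median scaling, where it differed by -0.29 (adjusted p = 0.309). Esrrg, of the same orphan group, differed by 0.003 ± 0.10, and Foxa1, a partner factor of steroid receptors, by 0.02 ± 0.10.

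Among factors known from other tissues to act on Sult1e1, 1 of 5 tested fell. Rora, an orphan receptor of the circadian system that binds AGGTCA after an AT-rich stretch, ran from 6.87 through a median of 7.11 to 7.30 on the young arrays. The old arrays ran from 5.69 through 6.54 to 6.81, all below the young ones (log2 change -0.61 ± 0.16, limma, adjusted p = 0.0259). The call ended without 8-week array 1 or 4 (adjusted p of 0.0574 and 0.0572) and under median scaling (0.367). The log2 change was -0.30 without background correction and -0.27 on the authors' values. Nr1h3, the oxysterol receptor LXR alpha, differed by -0.26 ± 0.19, Nr1i2, the drug sensor PXR, by -0.06 ± 0.17, Hnf4a by -0.32 ± 0.15 and Nfe2l2 by -0.02 ± 0.19, and none of these 4 passed.

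**Figure D4:**
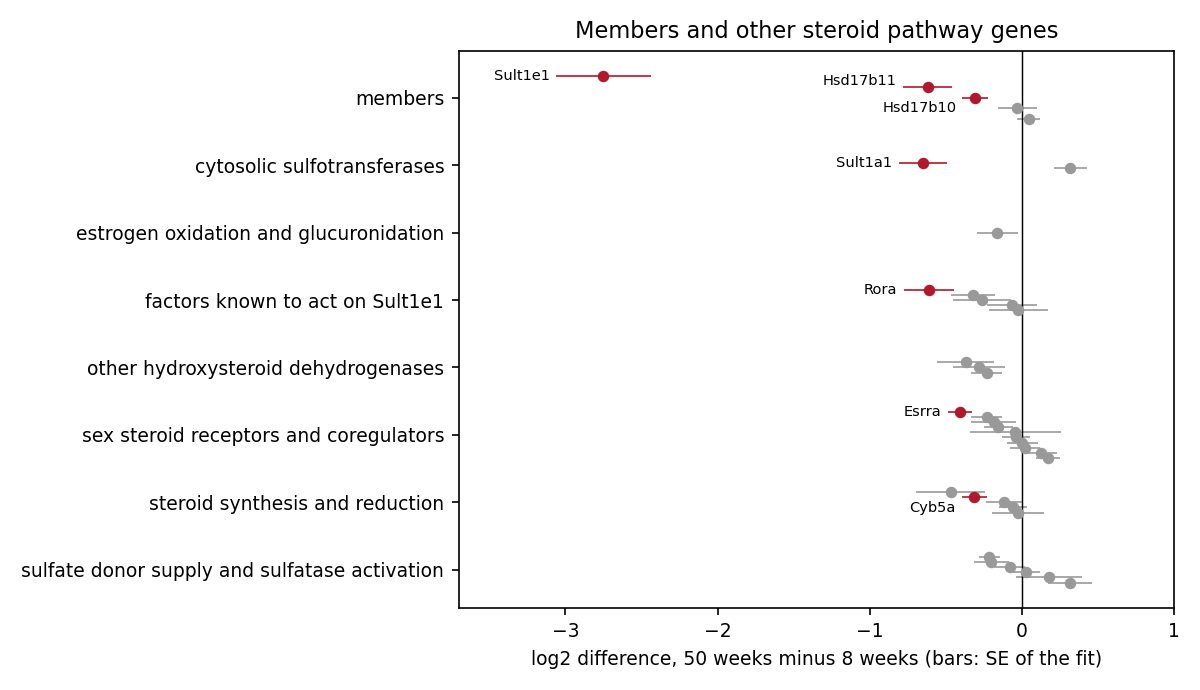
Log2 difference at 50 weeks minus 8 weeks for the 5 members that passed the filter and for 32 other genes in 7 lists, with the standard error of the fit; red marks genes called lower and grey the rest. Sult1e1 lies at -2.75, and the other called genes, Sult1a1, Rora, Esrra, Cyb5a, Hsd17b11 and Hsd17b10, lie between -0.65 and -0.31.

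The 12 measured kallikreins and growth factors of the granular ducts had array means of 14.76 to 14.90 at 8 weeks on the log2 scale. At 50 weeks the means were 14.72 to 14.80. Of these 12 genes only Klk1 was called (log2 change -0.73 ± 0.09, limma, adjusted p = 0.000177), and whether each answers to androgen was not tested. These probes lie near the top of the normalised scale, 15.23, and Klk1b27 was at the top on 4 young arrays, so nothing is read from their narrow range. The 8 acinar genes, of which Dcpp2 was at the top on 1 young and 6 old arrays, had array means of 12.82 to 13.05 and 12.86 to 13.07, and of these only Bhlha15, a secretory cell factor, was called (log2 change 0.41 ± 0.11, limma, adjusted p = 0.0309). Of the adipocyte list, 2 of 7 genes with a probe passed the filter, with array means from 4.84 to 9.69 at 8 weeks and from 4.71 to 6.61 at 50 weeks, while Plin1 and Retn were detected on 0 of 12 arrays. Products of the neighbouring parotid and sublingual glands had array means from 7.68 to 12.68 and from 7.93 to 12.62. Of 3 B and plasma cell genes tested, 2 rose, with 6 of 6 old arrays above every young one: Mzb1 by 2.97 ± 0.34 and Pou2af1 by 1.57 ± 0.28 on the log2 scale (limma, adjusted p of 0.000128 and 0.00301). Their array means ran from 4.47 to 5.72 at 8 weeks and from 5.54 to 7.55 at 50 weeks, and their part in the differences of the members was not tested.

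The relation of Sult1e1 to other members across arrays of the same age is not the age difference known at their choice, so it was tested. The spread within an age does enter the calls, and the test was chosen with earlier results of these data known. Sult1e1 was detected on only 2 of the 6 old arrays. After the mean of each age was removed, Sult1e1 was set against each of the 4 other measured members over the 12 arrays. Hsd17b12 ran opposite to Sult1e1, with Pearson's r of -0.75 (permutation p = 0.00268, adjusted p = 0.0107 over 4 pairs) and Spearman's rho of -0.73 (permutation p = 0.00459, adjusted p = 0.0184). Within the young arrays r was -0.82 and within the old arrays -0.72 (n = 6 each). Without the 2 arrays farthest from the median of Sult1e1, 8-week arrays 2 and 3, r was -0.55. The adjusted permutation p was 0.0651 without 8-week array 1, 0.073 with the adipocyte genes as a covariate, 0.106 without background correction and 0.533 under median scaling. Without both 8-week array 2 and 50-week array 6, r was -0.45 (adjusted permutation p = 0.172). Over the 6 differences between same-numbered arrays, r was -0.74 and did not pass (exact permutation p = 0.0917, adjusted p = 0.367).

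The other 3 pairs did not pass by Pearson's r. For Hsd17b4, r was 0.46 (permutation p = 0.0594, adjusted p = 0.119) and rho 0.63 (permutation p = 0.0224, adjusted p = 0.0448), with r of 0.72 without the 2 farthest arrays. For Hsd17b10, r was 0.33 (permutation p = 0.113, adjusted p = 0.151) and rho 0.41 (permutation p = 0.156, adjusted p = 0.207), with r of 0.59 without those arrays. For Hsd17b11, r was 0.18 (permutation p = 0.469, adjusted p = 0.469) and rho 0.23 (permutation p = 0.43, adjusted p = 0.43), with r of -0.23 without those arrays. On the old arrays Sult1e1 lay near background, so its order there is weakly measured.

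**Figure D5:**
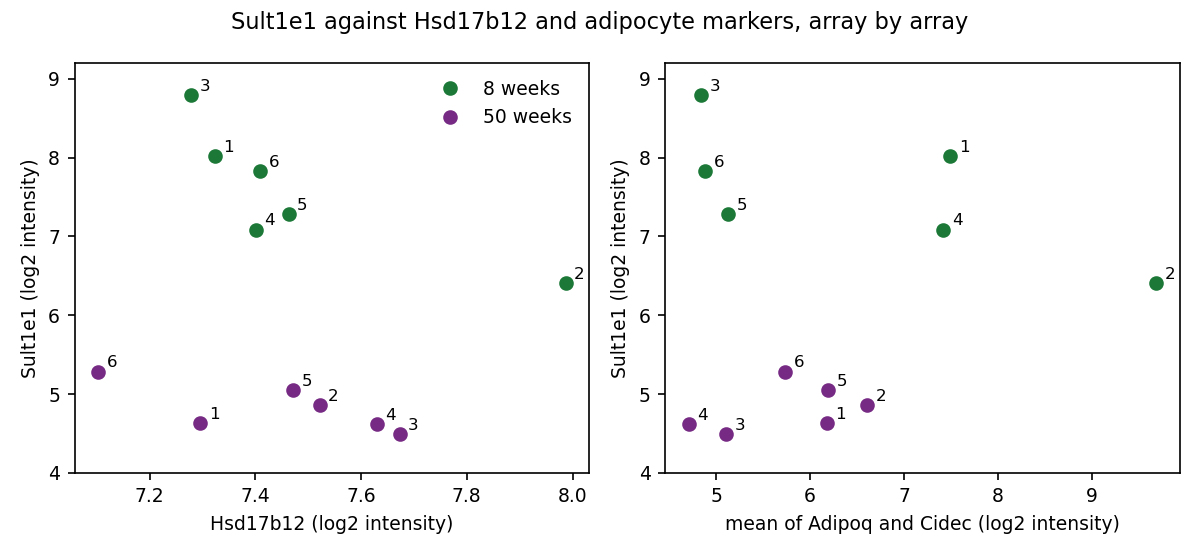
Log2 intensity of Sult1e1 on each array against Hsd17b12 (left) and against the mean of the adipocyte genes Adipoq and Cidec (right), with the array number beside each point. In both ages arrays with more Hsd17b12 mostly had less Sult1e1, 50-week array 1 lying off that line, and 8-week array 2 is at once lowest in Sult1e1 among young arrays and highest in Hsd17b12 and in adipocyte genes.

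The genes whose variation within each age was most like that of Sult1e1 were picked by Pearson's r over the 12 arrays from the genes tested, leaving out clone names, and carry no test. The 5 highest were Synpo, an actin-bundling protein (r = 0.957, rho = 0.93), Spint1, an epithelial inhibitor of membrane proteases (r = 0.949, rho = 0.93), Csrp2, a LIM-domain protein (r = 0.944, rho = 0.902), the tubulin Tubb2b (r = 0.934, rho = 0.916) and Galnt18 of the mucin-type glycosyltransferase family (r = 0.928, rho = 0.909). Without 8-week arrays 2 and 3 their r ran from 0.818 to 0.91. The 5 lowest, Cdkn2d, Fam126b, Ndufaf4, Cep68 and Vta1, had r from -0.904 to -0.845, and from -0.862 to -0.479 without those arrays. The lowest log2 difference between the ages among the 10 was -0.39 (Csrp2), and Synpo rose by 0.54 ± 0.14 (limma, adjusted p = 0.0195), opposite to Sult1e1. The adipocyte genes Adipoq and Cidec had r of -0.533 and -0.617 with Sult1e1 on the same 12 arrays. Amy1 and the Y-linked Eif2s3y had r of -0.391 and -0.44, so negative values were not limited to adipocyte genes.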

How the data were processed

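Per the labels, gland RNA was extracted with Trizol, cleaned on RNeasy columns with DNase I and labelled as biotinylated cRNA. The deposited table holds probe intensity on a linear scale, and per the file headers a detection p-value follows each intensity. The second deposited table holds the same intensities, which the authors had scaled by a single factor for each array (0.803 to 1.26), so that every mean was 260.6. No label or header names the scanner or its software.

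Intensities were corrected and quantile-normalised with neqc (limma 3.58.1, R 4.3.3, offset 16). Probes detected (p under 0.05) on at least 6 arrays were kept, 16254 in all. The brightest of a gene's kept probes stood for it, giving 9379 genes. Ages were compared by limma (lmFit, eBayes, 2-sided, Benjamini-Hochberg over all genes, threshold 0.05), and all differences are 50 weeks minus 8 weeks. Pairs of genes were tested with 100000 permutations of arrays within each age, 2-sided. Array number limits precision. Members, lists and tests were chosen with earlier results of these data known. The rule named the members, up to 4 genes of each list that passed, Esr2, the 5 most and 5 least alike to Sult1e1, and markers. Genes named that did not pass were chosen after their values were seen. On background-corrected values, a fold is a bound where at most 3 old arrays detected the probe. Background correction, scaling, filters, probe rule, array weights, replicate block, covariates and left-out arrays were varied. Figures used matplotlib 3.10.9, and sequences came from RefSeq.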

Additional observations from a re-analysis of the deposited data

Results flagged for a closer look

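Among 18 groups of 6 arrays, those of the 5 measured members and of the 4 pathway genes that fell, 4 held an array far from the others, judged by its gap to the nearest array over the whole range and Dixon's 95% critical value. Chance gives about 1 in 20 groups. Old array 6 was the highest for Hsd17b10, at 10.80 against 10.54 for the nearest (0.627 of the range), and the lowest for Hsd17b11, at 4.643 against 5.303 (0.632), and for Rora, at 5.69 against 6.486 (0.709). Young array 2 was the highest for Hsd17b12, at 7.987 against 7.463 (0.741).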

How the results depend on the processing

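The difference in Sult1e1 stayed negative in all settings tried, at -1.21 without background correction, -1.23 on the authors' values and between -2.98 and -2.51 when single arrays were left out. The count of all genes changed, 1171, was 393 under median scaling (320 higher, 73 lower), 2593 with array weights, 2540 without both 8-week array 2 and 50-week array 6, and 810 to 2348 without single arrays, the highest without 50-week array 6. The count of pathway genes changed, 4, was 0 under median scaling, 10 with array weights, 9 without both those arrays and 3 to 9 without single arrays. Of the 4 pairs of Sult1e1 with another member, 1 passed by Pearson's r. That number was 0 without background correction, 0 under median scaling, 0 with adipocyte genes as a covariate and 0 without both those arrays. It was 0 to 2 without single arrays, with 0 when 8-week array 1 was left out and 2 when 8-week array 3 or 50-week array 6 was. The r of Hsd17b11 turned to -0.0438 with the adipocyte covariate and ran from -0.0764 to 0.738 without single arrays. The causes were not tested.

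The labels do not say that a mouse number links arrays of different ages. Same-numbered arrays correlated at r from -0.00923 to 0.298 in their deviations, 5 of 6 pairs were over 0.1, and 3 of 12 arrays correlated best with their own number. With the replicate block the Sult1e1 difference was -2.75 and 911 genes changed (501 higher, 410 lower), 3 of them in the pathway lists. The parotid and sublingual means were high on arrays 1 and 2 of both ages (12.29 to 12.68) and low on arrays 3 and 5 (7.68 to 8.73). Over the 6 differences between same-numbered arrays, a replicate block for the pairs, 0 of 4 pairs passed, and the r of Hsd17b12 was -0.74 (exact permutation p = 0.0917, adjusted p = 0.367). The Amy1 covariate and, for the pairs, the adipocyte covariate, the block and the removal of both arrays were added after seeing the data. Signal close to background limits Sult1e1 at 50 weeks, Hsd17b11 and Esr1.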
